A study of Mus musculus with 2 samples.

Results

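The 10 genes described here act in cell cycle control and its stress responses, and their transcripts were read in the mouse adrenal gland. They are the inhibitors Cdkn1a, Cdkn1b and Cdkn1c, the stress genes Gadd45a, Gadd45b and Gadd45g, the D cyclins Ccnd1, Ccnd2 and Ccnd3, and the p53 ligase Mdm2. They were chosen by gene name, and a transcript model is listed only where it has reads. The 10 genes held 163 transcript models, 70 in replicate 2 and 93 in replicate 1, of 180226 models in all. Some of those belong to no annotated gene, and 16674 annotated genes had reads.

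The material was adrenal gland tissue of wild-type C57BL/6J mice from The Jackson Laboratory, read as total RNA by long-read RNA-seq, in which 1 read can span a whole transcript. The 2 libraries are biological replicates 2 and 1 of a single group, and they come from different biosamples under 1 donor identifier, so the labels do not say whether 2 animals were used. The descriptions name females, the sex field reads not collected and the age is given as unknown. There was no second condition, so the comparison below is between 2 libraries, and nothing in it compares conditions.

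Replicate 2 held 587861 reads and replicate 1 held 810239. A count of 0 allows up to 3 reads, which is 5.10 CPM (counts per 1000000 reads of a library) in replicate 2 and 3.70 CPM in replicate 1. Each read was counted as 1 molecule, so CPM was not divided by length. Markers of the labelled tissue were present: the 6 cortex markers, led by steroid synthesis genes, summed to 90942 CPM in replicate 2 and 77322 CPM in replicate 1, and the 5 chromaffin markers to 8495 and 6193 CPM in the same order of libraries. Of the 3 kidney markers, Umod and Slc34a1 were at 0 in both libraries, and Cyp4b1 had 37.4 CPM in replicate 2 and 40.7 CPM in replicate 1. Macrophage markers (5 genes) summed to 298 CPM in replicate 2 and 1117 CPM in replicate 1, endothelial markers (5 genes) to 665 CPM in replicate 2 and 212 CPM in replicate 1, and the 2 globin genes to 146 CPM in replicate 2 and 1298 CPM in replicate 1. The part of these cell types in the results below was not tested, and in bulk tissue fewer cells of a type and less RNA per cell cannot be told apart.

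D cyclins bind and activate the kinases Cdk4 and Cdk6, which phosphorylate the retinoblastoma protein and let a cell leave G1. The Cip/Kip proteins p21 (Cdkn1a), p27 (Cdkn1b) and p57 (Cdkn1c) bind cyclin-kinase complexes and hold that step back, and Gadd45 proteins are small stress-induced partners of p21, PCNA and the kinase Map3k4. The factor p53 drives Cdkn1a and Mdm2, and Mdm2 in turn marks p53 for degradation. In the adrenal cortex p57 is known from human disease, since CDKN1C mutations accompany both an overgrown and a very small fetal adrenal.

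By mean level, Cdkn1c stood first, Cdkn1a in the middle of the 10 genes and Cdkn1b near the end. In replicate 2, Ccnd3 was higher than Cdkn1c, and Cdkn1a had 0 reads there against 112 CPM in replicate 1. Over both libraries the order of the means was Cdkn1c, Ccnd3, Ccnd2, Mdm2, Cdkn1a, Gadd45g, Ccnd1, Gadd45b, Cdkn1b and Gadd45a. Cdkn1c averaged 778 ± 643 CPM (SD, n = 2 here and for each mean below), rank 116 among all genes. Ccnd3 averaged 399 ± 73.2 CPM, Ccnd2 254 ± 15.7 CPM and Mdm2 171 ± 184 CPM. Cdkn1a averaged 56.2 ± 79.4 CPM, Gadd45g 54.3 ± 76.8 CPM, Ccnd1 42.1 ± 5.42 CPM, Gadd45b 31.0 ± 9.01 CPM, Cdkn1b 8.19 ± 2.85 CPM and Gadd45a 4.40 ± 0.990 CPM. The spread of Cdkn1c, Mdm2, Cdkn1a and Gadd45g was as wide as their means or nearly so. Their place relative to their neighbours in that order is therefore not settled beyond the spread, while Ccnd3 lay above Ccnd2 in both libraries.

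**Figure D1:**
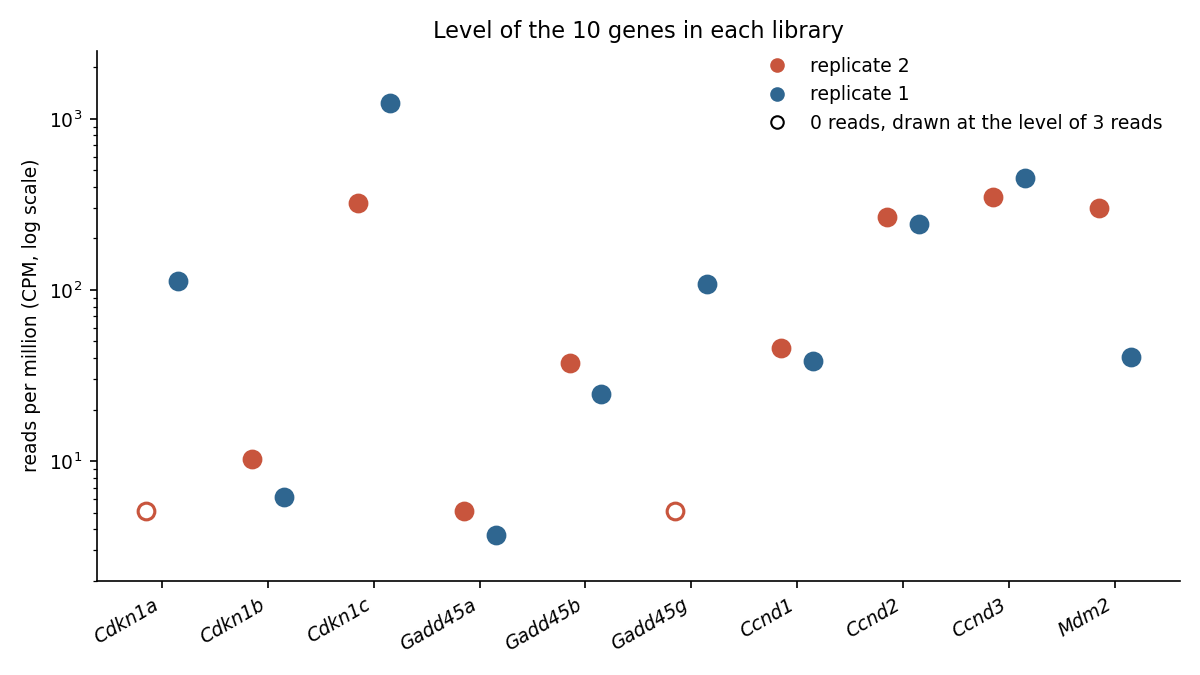
Level of each of the 10 genes in replicate 2 (left point) and replicate 1 (right point) in CPM on a log axis. Open points mark a count of 0, drawn at the level of 3 reads. Cdkn1a and Gadd45g had 0 reads in replicate 2, and Mdm2 stood at 301 CPM in replicate 2 against 40.7 CPM in replicate 1.

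The libraries were then compared gene by gene, to see how far the level of each gene held between the replicates. For each gene an exact binomial test, two-sided, set its split of reads against the split that TMM scaling (trimmed mean of M values) gives. Its p-values were adjusted by Benjamini-Hochberg over 9809 genes with at least 10 reads. Of the 10 genes, 9 could be tested and 6 passed at 0.05, 1 higher in replicate 2 (Mdm2) and 5 lower there. Over all genes 66.2% passed, with 30.6% on the side of replicate 2 and 35.6% on that of replicate 1, so 6 of 9 is near the background of this pair of libraries. The median log2 ratio, replicate 2 over replicate 1, was -0.34 over the 9 genes and -0.01 over all genes tested. It stayed at -0.34 with 3 reads set in place of 0 for both genes that had 0 reads. Scaled by total counts, the median of all genes was 0.46, and 56.8% of the genes that passed were higher in replicate 2, where TMM gave 46.2%. These p-values and all intervals below cover counting error in 2 libraries only and have no replicate check.

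The ratio also followed model length over all genes: short transcripts were poorer and long ones richer in replicate 2. A lowess curve through genes with at least 20 reads gave the ratio usual for each length, and a second test was run against that curve over the 9173 genes with a length. In it, 7 of the 9 genes passed, 2 higher in replicate 2 (Mdm2 and Gadd45b) and 5 lower there (Cdkn1a, Cdkn1c, Gadd45g, Ccnd1 and Ccnd2). Over all genes 42.3% passed this length-adjusted test, 21.1% towards replicate 2 and 21.2% towards replicate 1. The median length-adjusted log2 ratio was -1.16 over the 9 genes, with or without 3 reads set in place of 0, and 0.06 over all genes. Cdkn1a, Cdkn1c, Gadd45g, Ccnd2 and Mdm2 passed both tests in the same direction. The share of all genes that did so was not counted, so this has no background to be set against.

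**Figure D2:**
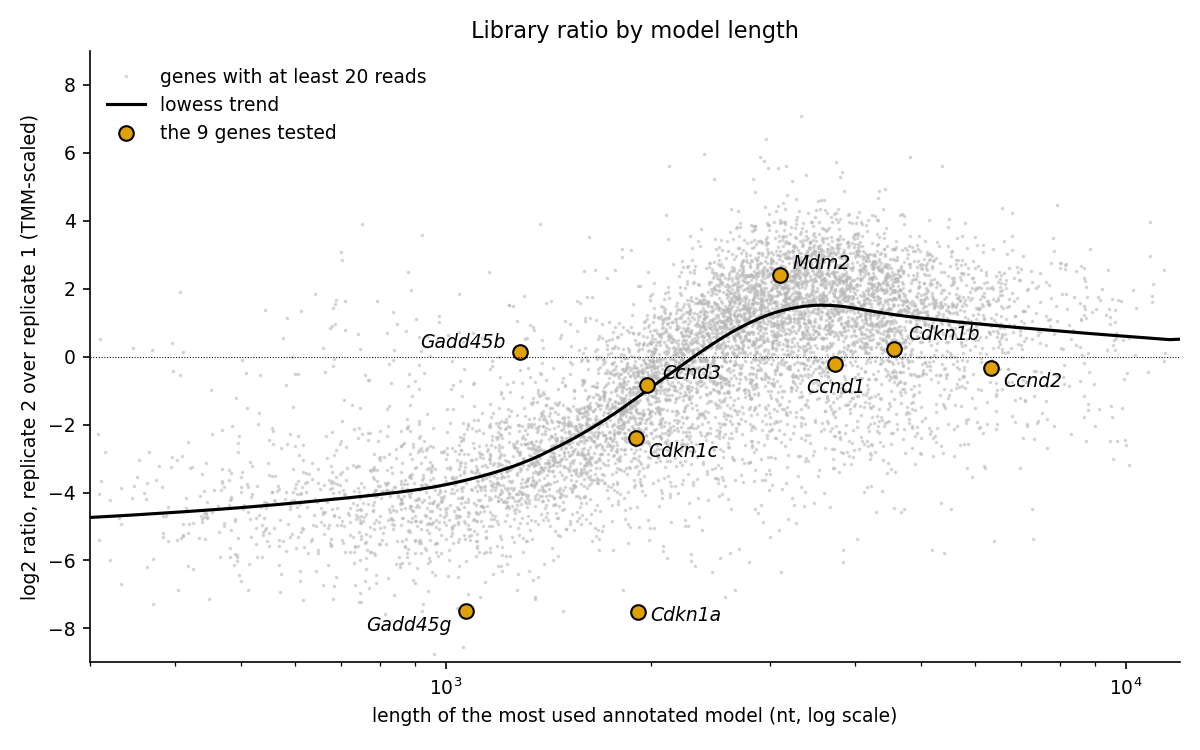
Log2 ratio of replicate 2 over replicate 1 (vertical axis) against model length in nt (log axis; the annotated model with most reads). Grey points are genes with at least 20 reads, the line is the lowess trend and gold points are the 9 genes tested (Cdkn1a and Gadd45g, with 0 reads in replicate 2, are placed by 0.5 added reads and mark no measured ratio). Gadd45b lay 3.29 above the trend at 1284 nt and Cdkn1c 1.16 below it at 1901 nt.

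Cdkn1a encodes p21, the inhibitor that p53 induces, on the plus strand of chromosome 17 (chr17:29090976-29100727, mm10). It had 0 reads in replicate 2, against 91 reads or 112 CPM in replicate 1. With 3 reads set in place of 0, Cdkn1a was 30.5-fold lower in replicate 2 (adjusted p = 3.10e-27, exact binomial test), and the interval of the test itself allows 24.3-fold. Against the length trend, with the same 3 reads set, it was 13.3-fold lower, a value without an interval. The length-adjusted test gave an adjusted exact p of 7.01e-14. Both p-values are for the observed 0 reads, not for the 3 reads set in their place. In a look made after these values were seen, 207 genes had 73 to 113 reads in replicate 1 and models of 1531 to 2391 nt, and Cdkn1a was the 1 of them with 0 reads in replicate 2. The median of those 207 genes in replicate 2 was 31 reads.

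All Cdkn1a structure therefore comes from replicate 1, where 5 models held reads. Of 88 spliced reads, 78 used the first exon of Cdkn1a-201 (88.6%, 95% Clopper-Pearson interval 80.1 to 94.4), 6 that of Cdkn1a-202 (6.82%, 2.54 to 14.3) and 4 that of Cdkn1a-203 (4.55%, 1.25 to 11.2). Cdkn1a-202 starts at position 29090979 and Cdkn1a-201 at position 29093769, so the more used start is the downstream one. The 250 bases before these starts are shown because they differ in the elements they hold (RefSeq, GRCm38.p6, plus strand). Capitals mark a p53 element in the first and the letters GGGCGG in the second.
Before Cdkn1a-202, chr17:29090729-29090978: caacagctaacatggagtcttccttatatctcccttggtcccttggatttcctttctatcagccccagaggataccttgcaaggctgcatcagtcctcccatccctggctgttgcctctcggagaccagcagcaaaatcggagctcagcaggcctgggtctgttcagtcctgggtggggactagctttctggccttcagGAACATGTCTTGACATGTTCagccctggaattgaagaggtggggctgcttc
Before Cdkn1a-201, chr17:29093519-29093768: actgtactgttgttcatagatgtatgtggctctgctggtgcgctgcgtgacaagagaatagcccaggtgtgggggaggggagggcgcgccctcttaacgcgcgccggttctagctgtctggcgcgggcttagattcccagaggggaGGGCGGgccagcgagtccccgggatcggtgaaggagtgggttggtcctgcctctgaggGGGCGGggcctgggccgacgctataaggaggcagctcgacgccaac
The p53 element, a pair of adjoining p53 half-sites of 20 bases in all, was sought on both strands with at most 1 mismatch. None of the 7 members with a promoter window held an exact match, and the mismatch was allowed after that was seen. The match ends 31 bases before the start of Cdkn1a-202 and holds 1 mismatch. Such a match was found before 25 of 32851 RefSeq starts (0.0761%), and an exact match before 3 (0.00913%). GGGCGG, sought on both strands, occurs 2 times before Cdkn1a-201, the nearest ending 40 bases before the start, and is found before 32.7% of all starts. These matches describe letters, not binding.

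Cdkn1b encodes p27, an inhibitor known mainly for its control by protein decay (chr6:134920401-134925513, plus strand). It had 6 reads or 10.2 CPM in replicate 2 and 5 reads or 6.17 CPM in replicate 1. The difference did not pass (1.19-fold, interval 0.303 to 4.94, adjusted p = 1.00, exact binomial test). All 6 reads in replicate 2 and 3 of 5 in replicate 1 were on Cdkn1b-202, a model of 2 exons and 4552 nt, and the other 2 reads were unspliced inside its last exon.

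Cdkn1c encodes p57, an imprinted inhibitor active from the maternal copy (chr7:143458339-143461050, minus strand). It had 190 reads or 323 CPM in replicate 2, against 999 reads or 1233 CPM in replicate 1. Cdkn1c was 5.29-fold lower in replicate 2 (interval 4.52 to 6.21, adjusted p = 3.20e-132, exact binomial test). Against the length trend the log2 ratio was -1.16 (adjusted exact p = 4.48e-27). It was the highest of the 10 genes in replicate 1 and, in replicate 2, came after Ccnd3.

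Many reads of Cdkn1c lay on spliced models outside the annotation. Leaving aside models that match an annotated transcript incompletely, spliced models that the annotation lacks made up 56.8% of its reads in replicate 2 (49.5 to 64.0) and 59.0% in replicate 1 (55.8 to 62.0). Over all annotated genes that share was 12.0% in replicate 2 and 5.70% in replicate 1. Without Cdkn1c, the other members stood at 6.55% in replicate 2 and 2.52% in replicate 1. The 39 different models of Cdkn1c, of which 15 were read in both libraries, included many that differ at the ends of exon 2, the large coding exon.

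At its start, exon 2 had 3 acceptors. The upstream one, annotated in Cdkn1c-202, took 11.6% of reads in replicate 2 (7.33 to 17.2) and 9.87% in replicate 1 (8.05 to 12.0). The middle one, annotated in Cdkn1c-201 and 38 nt downstream, took 65.7% in replicate 2 (58.3 to 72.6) and 61.7% in replicate 1 (58.5 to 64.8). The third, a further 3 nt downstream and unannotated, took 22.1% in replicate 2 (16.3 to 28.9) and 28.5% in replicate 1 (25.6 to 31.4). The order of the acceptors was the same in both libraries and the intervals of each overlapped.

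The window around the middle and downstream acceptors is shown because it holds both annotated start codons and both AG dinucleotides (GENCODE M21 transcript Cdkn1c-202, chr7:143460651-143460707, mm10, minus strand). Capitals mark the start codons on the first line and the AG before each acceptor on the second.
Start codons: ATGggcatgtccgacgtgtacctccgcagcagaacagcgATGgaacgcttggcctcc
Acceptors: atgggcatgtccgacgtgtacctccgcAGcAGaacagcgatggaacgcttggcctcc
Both AG lie between the start codons, which are 39 nt or 13 codons apart in 1 reading frame. Use of the middle or downstream acceptor therefore removes the first start codon and leaves that of Cdkn1c-201, while the upstream acceptor keeps both. The choice between the middle and the downstream acceptor falls before the start codon of Cdkn1c-201 and leaves its coding sequence as it is.

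At its end, exon 2 had 2 donors 36 nt apart. The longer form, annotated in Cdkn1c-205, which begins inside exon 2, took 41.4% of reads in replicate 2 (34.2 to 48.8) and 43.4% in replicate 1 (40.2 to 46.6). The shorter form of Cdkn1c-201 and Cdkn1c-202 took 58.6% in replicate 2 (51.2 to 65.8) and 56.4% in replicate 1 (53.2 to 59.6). The stretch between the donors is printed in capitals, since it is what separates the 2 forms (Cdkn1c-205, chr7:143459759-143459818, minus strand).
End of exon 2: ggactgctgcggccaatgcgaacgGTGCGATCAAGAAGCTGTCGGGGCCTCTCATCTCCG
It starts with GT, adds 12 codons and, read in the frame of the annotated start codons, holds no stop codon.

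Because 1 read spans both ends of exon 2, the choices could be followed on the same molecule. The longer donor form made up 47.6% of the reads with the upstream acceptor in replicate 2 (25.7 to 70.2) and 38.3% in replicate 1 (28.5 to 48.9). With the middle acceptor it made up 42.2% in replicate 2 (33.1 to 51.8) and 42.7% in replicate 1 (38.7 to 46.9). With the downstream acceptor it made up 40.0% in replicate 2 (24.9 to 56.7) and 45.9% in replicate 1 (39.9 to 52.1). Within each library all these intervals overlapped. The most frequent combination, middle acceptor with the shorter donor, held 37.9% of such reads in replicate 2 and 35.3% in replicate 1. The second, middle acceptor with the longer donor, held 27.7% in replicate 2 and 26.3% in replicate 1. No annotated transcript joins one of these acceptors to the longer donor.

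**Figure D3:**
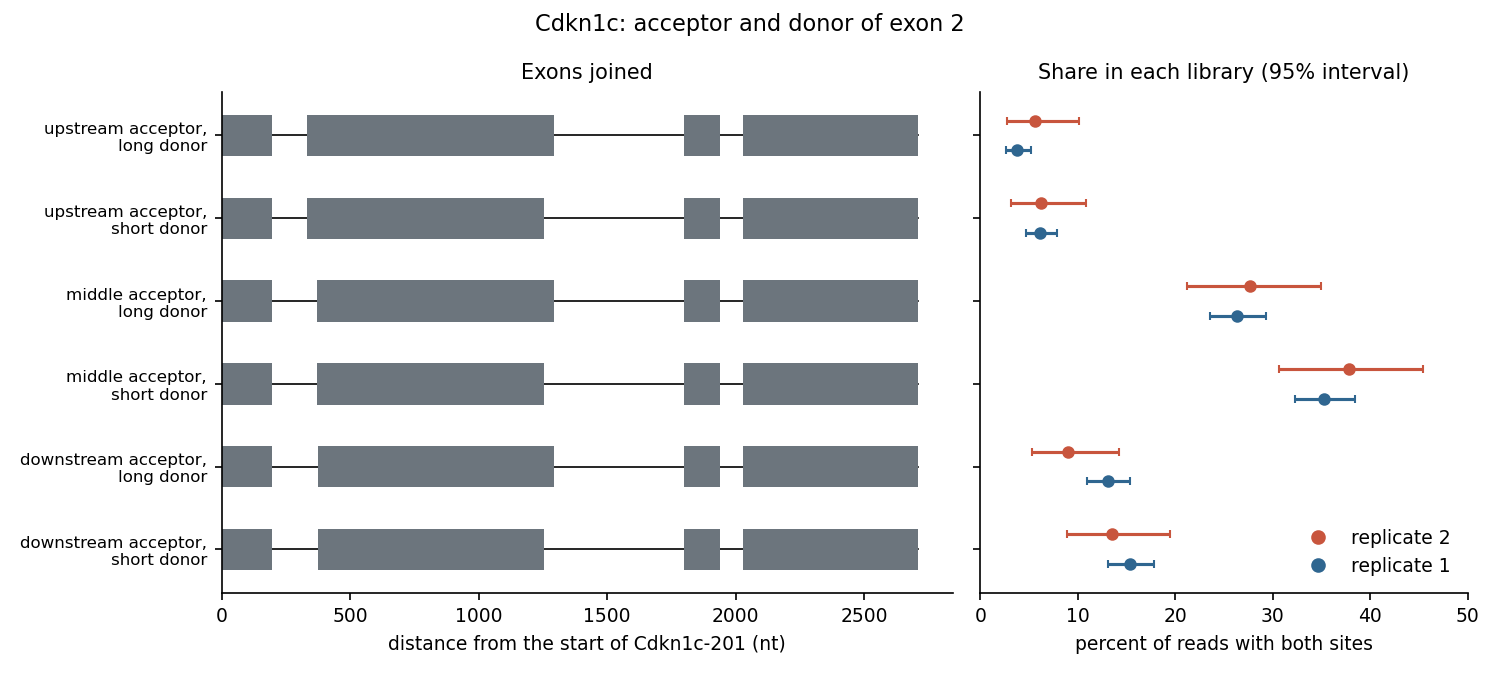
Left, the 6 combinations of exon 2 acceptor and donor in Cdkn1c drawn to scale with the outer ends of Cdkn1c-201 (distance in nt, boxes are exons). Right, the percent of reads with both sites in replicate 2 (upper point) and replicate 1 (lower point) with 95% Clopper-Pearson intervals. Both forms with the middle acceptor lead in each library, at 37.9% and 27.7% in replicate 2 and 35.3% and 26.3% in replicate 1.

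Smaller choices of Cdkn1c recurred as well. An unannotated acceptor of exon 4 held 6 of 189 reads in replicate 2 (3.17%) and 38 of 975 in replicate 1 (3.90%). Introns cut out of exon 2 itself were seen in 3 reads of replicate 2 (1.58%, 0.327 to 4.55) and 31 of replicate 1 (3.10%, 2.12 to 4.38), by 4 junctions of 59 to 531 nt. The first intron was kept in 7 reads of replicate 2 (5.56% of the reads that kept or removed it with the middle acceptor) and 11 of replicate 1 (1.84%).

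The Gadd45 genes differed among themselves. Gadd45a (chr6:67035096-67037457, minus strand), the member first known from DNA damage, had 3 reads in each library, too few to test. Gadd45b (chr10:80930073-80932204, plus strand), induced by TGF-beta and NF-kappaB signals, had 22 reads or 37.4 CPM in replicate 2 and 20 reads or 24.7 CPM in replicate 1. The difference did not pass (1.09-fold, interval 0.570 to 2.11, adjusted p = 0.907, exact binomial test). Genes of its length were lower in replicate 2 by a log2 ratio of -3.16, however, so Gadd45b stood 3.29 above its length trend (adjusted exact p = 8.79e-11).

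Gadd45g (chr13:51846678-51848468, plus strand), a growth-suppressing member of the family, had 0 reads in replicate 2, against 88 reads or 109 CPM in replicate 1. With 3 reads in place of 0, Gadd45g was 29.5-fold lower in replicate 2 (adjusted p = 2.39e-26, exact binomial test), and the interval allows 23.5-fold. Against the length trend, with the same 3 reads set, that value shrank to 2.38-fold, without an interval. The length-adjusted test gave an adjusted exact p of 0.00585. Both p-values are for the observed 0 reads and do not test the folds with 3 reads set. Of 113 genes with 71 to 110 reads in replicate 1 and models of 857 to 1338 nt, chosen after seeing the values, 4 had 0 reads in replicate 2 and the median was 5 reads.

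Gadd45 transcripts were mostly the annotated ones of 4 exons. Gadd45b-201 held 18 of 22 reads in replicate 2 (81.8%, 59.7 to 94.8) and 16 of 20 in replicate 1 (80.0%, 56.3 to 94.3). An unannotated model that keeps its second intron of 479 nt was read in both libraries, by 2 reads in replicate 2 and 1 in replicate 1. Gadd45g-201 held 72 of 88 reads in replicate 1 (81.8%, 72.2 to 89.2), and the second of its introns, 102 nt long, was kept in 14 of 87 reads (16.1%, 9.09 to 25.5). Unspliced over the whole gene were 7 of 88 Gadd45g reads. In Gadd45a 2 of 3 reads of replicate 2 were on Gadd45a-201, and 2 of 3 in replicate 1 were unspliced. The letters TATAAA end 40 bases before the RefSeq start of Gadd45b and 21 bases before that of Gadd45g, and occur before 12.4% of all starts on either strand.

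All 3 D cyclins were read in both libraries. Ccnd1 (chr7:144929931-144939925, minus strand), the cyclin most tied to growth factor signals, had 27 reads or 45.9 CPM in replicate 2 and 31 reads or 38.3 CPM in replicate 1. Its difference did not pass (log2 ratio -0.20, adjusted p = 0.663, exact binomial test), but at 3740 nt it lay 1.70 below the length trend (adjusted p = 6.75e-05). TMM scales the libraries differently from CPM, which is why the CPM is higher in replicate 2 and the log2 ratio is negative, here and for Ccnd2.

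Ccnd2 (chr6:127125162-127152193, minus strand), the D cyclin of many hormone-driven tissues, had 156 reads or 265 CPM in replicate 2 and 197 reads or 243 CPM in replicate 1. The difference was small (log2 ratio -0.34, adjusted p = 0.0391, exact binomial test) and hung on the scaling: with total counts the log2 ratio was 0.13 (adjusted p = 0.476). Counting only spliced models, an alternative added after the data were seen, made it -1.22 (adjusted exact p = 5.03e-08), and the length-adjusted value was -1.27 (adjusted exact p = 3.03e-15).

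The make-up of Ccnd2 transcripts differed as well. The annotated model of 6330 nt with the full coding sequence held 54 of 156 reads in replicate 2 (34.6%, 27.2 to 42.6) and 123 of 197 in replicate 1 (62.4%, 55.3 to 69.2). The difference of -27.8 percentage points passed Fisher's exact test (adjusted p = 3.88e-06), as did 28.7% of the 4733 genes tested for use of their most used model. Of the members, 6 could be tested and Ccnd2 was the 1 that passed. The other large class was unspliced reads inside the last exon, 97 reads in replicate 2 (62.2%, 54.1 to 69.8) and 60 in replicate 1 (30.5%, 24.1 to 37.4). With unspliced unannotated models left out, the use of that model differed by 1.74 points (adjusted exact p = 0.964).

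That last exon is 5326 nt long, of which 150 nt are coding. All 97 reads of replicate 2 shared 1 model that covers the last 2698 nt of the 3′ untranslated region. In replicate 1, 51 reads shared a model of 372 nt that ends 622 nt before the annotated end of the gene, and 8 reads covered the last 623 nt. Of the 20 bases after the recorded end of the 372 nt model, 11 are A. A pooled model carries 1 recorded pair of ends, so the ends of single reads are not known. The genes 9330179D12Rik and Gm43126 are annotated on the opposite strand at this locus and had 26 reads in replicate 2 and 14 in replicate 1. How strand was assigned is not given in the sources used here, so reads of overlapping genes are uncertain. In Ccnd1, unspliced reads inside the last exon were 5 of 27 in replicate 2 (18.5%, 6.30 to 38.1) and 11 of 31 in replicate 1 (35.5%, 19.2 to 54.6).

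Ccnd3 (chr17:47505051-47599691, plus strand), the D cyclin with the widest expression, had 204 reads or 347 CPM in replicate 2 and 365 reads or 451 CPM in replicate 1. Ccnd3 was 1.80-fold lower in replicate 2 (interval 1.51 to 2.15, adjusted p = 3.54e-11, exact binomial test). With length adjusted, at 1977 nt, the log2 ratio was 0.15 and did not pass (adjusted exact p = 0.402).

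Most Ccnd3 reads were on 1 model. The annotated model of 1977 nt that starts at position 47593470 held 188 of 204 reads in replicate 2 (92.2%, 87.6 to 95.4) and 326 of 365 in replicate 1 (89.3%, 85.7 to 92.3). First exons at the far upstream end of the gene, shared by 11 annotated transcripts, were used by 6 of 200 spliced reads in replicate 2 (3.0%, 1.11 to 6.41) and 2 of 348 in replicate 1 (0.575%, 0.0697 to 2.06). Both libraries thus put nearly all reads on the near start, which carried 94.0% of spliced reads in replicate 2 and 94.5% in replicate 1. Bysl, the gene on the other strand that overlaps Ccnd3, had 37 reads in replicate 2 and 35 in replicate 1.

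Mdm2 encodes the ubiquitin ligase that removes p53 (chr10:117688875-117710758, minus strand). It had 177 reads or 301 CPM in replicate 2, against 33 reads or 40.7 CPM in replicate 1. Mdm2 was 5.33-fold higher in replicate 2 (interval 3.66 to 7.99, adjusted p = 4.89e-24, exact binomial test), the 1 member higher there in this test. Against the length trend at 3099 nt the log2 ratio was 1.06 (adjusted exact p = 1.38e-04). The p53 targets Cdkn1a and Mdm2 thus differed between the libraries in opposite directions.

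Mdm2 is known to have a second promoter inside intron 1 that answers to p53. Reads that held exon 1 made up 127 of the 171 reads of replicate 2 that held exon 1 or were spliced at the end of exon 2 (74.3%, 67.0 to 80.6) and 19 of 33 such reads in replicate 1 (57.6%, 39.2 to 74.5). The others began after exon 1, in 44 reads of replicate 2 (25.7%, 19.4 to 33.0) and 14 of replicate 1 (42.4%, 25.5 to 60.8). The intervals overlapped, and the use of the annotated 3099 nt model that starts with exon 1 did not pass Fisher's exact test (59.9% in replicate 2, 36.4% in replicate 1, adjusted p = 0.0680). Of the reads without exon 1, 38 in replicate 2 and 1 in replicate 1 were on models that start 264 nt before exon 2, where Mdm2-207 starts. In replicate 2, 5 reads and in replicate 1, 13 reads were on models that start 50 nt before exon 2, at the start of Mdm2-206. The remaining read, in replicate 2, was on a model that starts inside exon 2. A pooled model carries 1 recorded start. The largest models without exon 1, with 31 reads in replicate 2 and 11 in replicate 1, share all junctions and differ in that recorded start. The split of reads between these starts is therefore that of the recorded model ends. Where a single read began was not recorded, so a true start and a read cut short cannot be told apart.

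Exon 3 of Mdm2, 85 nt long, is shown because it carries the annotated start codon, in capitals (GENCODE M21, annotated model of 12 exons, chr10:117709700-117709780, mm10, minus strand).
Coding part of exon 3: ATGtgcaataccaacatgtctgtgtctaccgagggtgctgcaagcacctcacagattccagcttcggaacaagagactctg
Among the same reads it was skipped in 12 of 171 in replicate 2 (7.02%, 3.68 to 11.9) and 3 of 33 in replicate 1 (9.09%, 1.92 to 24.3). Such reads lack these 81 coding bases, and the next ATG in the same frame lies in exon 4, 49 codons after the first. Skipping was seen in reads with exon 1 and in reads without it, in 5.51% and 11.4% of them in replicate 2 and in 10.5% and 7.14% in replicate 1. In addition, 12 reads of replicate 2 and 1 of replicate 1 joined exons 3 and 4 by an intron of 4471 nt (chr10:117705225-117709695). Both its ends are unannotated and lie a few bases from those of the annotated intron of 4470 nt (chr10:117705230-117709699). Whether it is a separate splice choice was not tested.

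**Figure D4:**
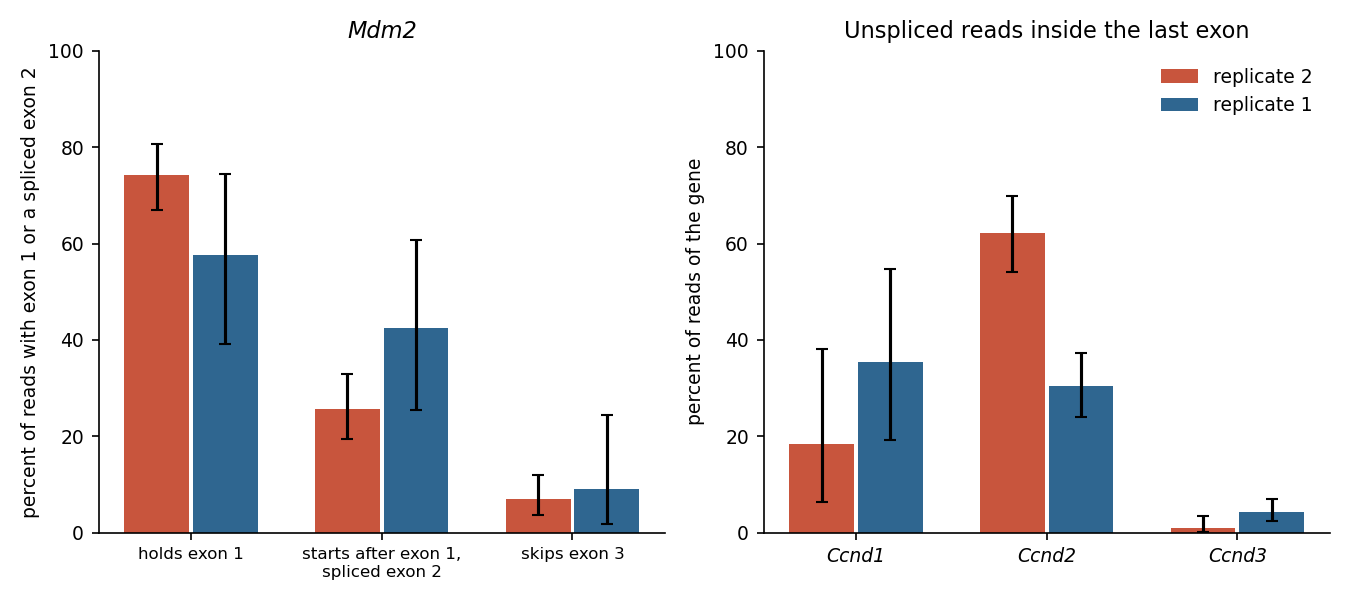
Left, percent of the Mdm2 reads with exon 1 or a spliced exon 2 that hold exon 1, that start after exon 1, and that skip exon 3. Right, percent of the reads of each D cyclin that lie unspliced inside the last exon. Left bars are replicate 2, right bars replicate 1, and lines are 95% Clopper-Pearson intervals. For Ccnd2 the share is 62.2% in replicate 2 and 30.5% in replicate 1.

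Across the 10 genes together, annotated models held 60.8% of reads in replicate 2 (57.2 to 64.2) and 57.6% in replicate 1 (55.3 to 59.9). Over all annotated genes the share was 74.1% in replicate 2 and 78.7% in replicate 1. Unspliced, unannotated reads made up 14.0% of the members' reads in replicate 2 (11.7 to 16.6) and 6.77% in replicate 1 (5.66 to 8.02), against 4.17% and 6.06% over all genes in the same order of libraries. Cdkn1c gave 108 of 147 unannotated spliced reads in replicate 2 and 589 of 610 in replicate 1. Ccnd2 gave 97 of 110 unspliced reads in replicate 2 and 60 of 124 in replicate 1. Cdkn1a at 95.6% in replicate 1 (89.1 to 98.8) and Ccnd3 at 95.1% in replicate 2 (91.2 to 97.6) and 92.1% in replicate 1 (88.8 to 94.6) were almost wholly on annotated models.

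**Figure D5:**
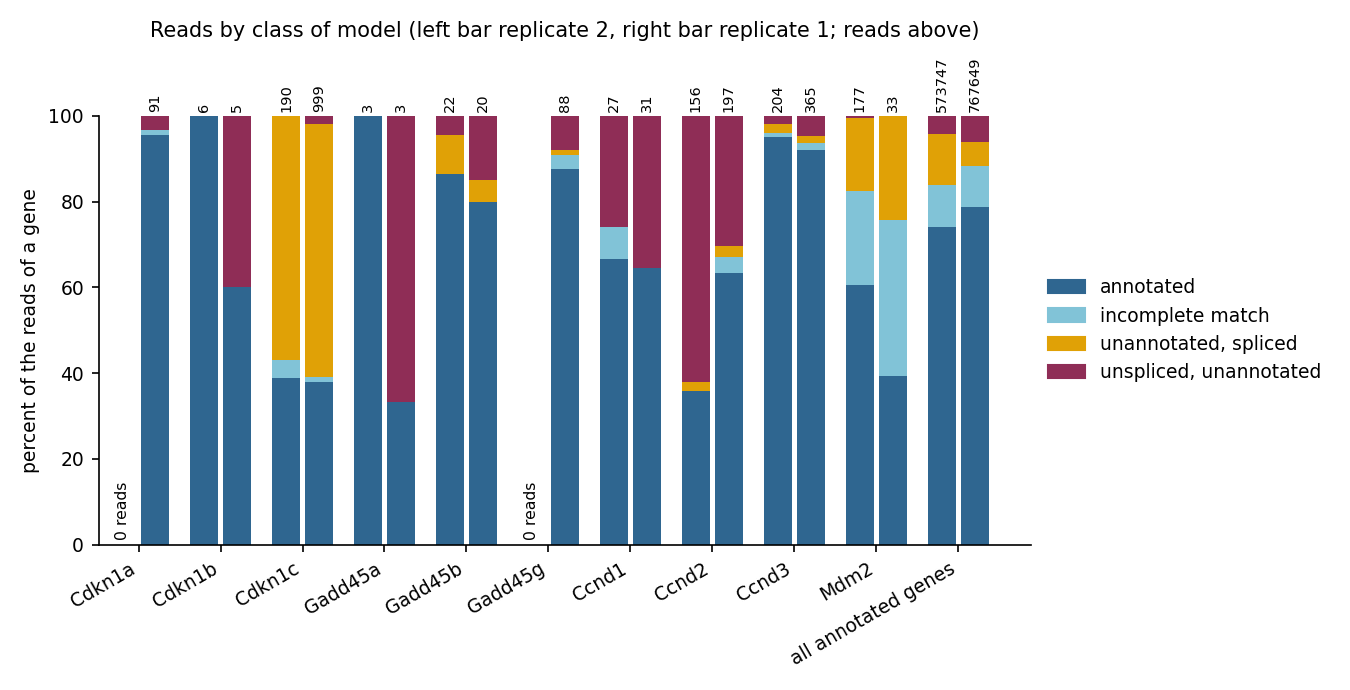
Percent of the reads of each gene on annotated, incompletely matching, unannotated spliced and unspliced unannotated models, with the reads of each bar above it. Left bars are replicate 2 and right bars replicate 1, with all annotated genes at the right end. Unannotated spliced reads stand out in Cdkn1c (56.8% in replicate 2, 59.0% in replicate 1) and unspliced ones in Ccnd2 (62.2% in replicate 2, 30.5% in replicate 1).

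Other genes of G1 control and of the p53 response were read beside the members, from a list of 69 genes of which 67 had reads. Of 51 tested, 35 passed the exact binomial test (68.6%, against 66.2% of all genes), 17 higher in replicate 2 and 18 lower, and the median log2 ratio was -0.21. Against the length trend 27 of 49 passed (55.1%, against 42.3% of all genes), 14 higher in replicate 2 and 13 lower, and 20 passed both tests in the same direction. The share of all genes that passed both was not counted. The kinase partners of the D cyclins were lower in replicate 2: Cdk4 had 12 reads in replicate 2 and 153 in replicate 1 (length-adjusted log2 ratio -2.87, adjusted exact p = 8.90e-18), and Cdk6 had 5 and 35 in the same order of libraries (-3.08, adjusted exact p = 9.41e-08). Skp1a and Cul1 encode the core of the SCF ligase that destroys p27. Skp1a had 109 CPM in replicate 2 and 1021 CPM in replicate 1 (length-adjusted log2 ratio -0.98, adjusted exact p = 6.54e-08), while Cul1 had 429 CPM in replicate 2 and 93.8 CPM in replicate 1 and did not pass with length adjusted (0.33, adjusted exact p = 0.142). Fbxw7, the F-box protein that targets cyclin E, had 3 reads in replicate 2 and 20 in replicate 1 (length-adjusted log2 ratio -2.30, adjusted exact p = 0.00436).

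Ppm1d, the gene of a phosphatase induced by p53, was higher in replicate 2, with 37 reads there and 3 in replicate 1 (length-adjusted log2 ratio 2.28, adjusted exact p = 0.00185). Trp53i11, a p53-induced gene, had 556 CPM in replicate 2 and 69.1 CPM in replicate 1 (1.77, adjusted exact p = 7.00e-21). Of the list genes that passed both tests in the same direction, 12 were higher in replicate 2 and 8 lower. How all genes split in this way was not counted, so no lean of the list is read from it. Among the 12 were other genes of the p53 response: Ccng1 (186 reads in replicate 2, 34 in replicate 1) and Sesn1 (94 and 27). Plk2 (96 and 25), Plk3 (32 and 10) and Xpc (80 and 14) were too, in the same order of libraries. These genes were named after their values were seen, as were Rrm2b, Trp53inp1 and Bax. The latter had fewer reads in replicate 2, and none of them passed both tests. Rrm2b, a ribonucleotide reductase subunit, had 11 reads in replicate 2 and 17 in replicate 1 (length-adjusted log2 ratio -1.85, adjusted exact p = 0.00243), and Trp53inp1 had 17 and 22 in the same order of libraries (-1.43, adjusted exact p = 0.00890). Neither passed before length was adjusted (adjusted exact p = 0.322 and 0.491). In CPM, Trp53inp1 was slightly higher in replicate 2 (28.92) than in replicate 1 (27.15). Bax, which promotes cell death, had 3 reads in replicate 2 and 59 in replicate 1 and was lower before length was adjusted (log2 ratio -4.10, adjusted exact p = 4.13e-14) but did not pass after it (-0.13, adjusted exact p = 1.00). Phlda3 (5 and 49 reads) likewise passed only before length was adjusted (-3.18, adjusted exact p = 7.57e-10, then -0.45 and 0.684). Bbc3 (0 and 7) and Zmat3 (3 and 5) were too few to test. Sesn2 (27 and 8) was higher in replicate 2 only before length was adjusted. These 4 were also named after their values were seen. The p53 response genes of the list thus did not all go 1 way. Among the antiproliferative Btg and Tob genes, Btg2 had 221 reads in replicate 2 and 20 in replicate 1 (length-adjusted log2 ratio 2.51, adjusted exact p = 2.98e-20), and Tob1 had 240 reads in replicate 2 and 42 in replicate 1 (2.57, adjusted exact p = 1.52e-35). Tob2, named after its values were seen, had 49 reads in replicate 2 and 8 in replicate 1 (1.17, adjusted exact p = 0.0432). Btg1 had 20 reads in replicate 2 and 57 in replicate 1 (-2.63, adjusted exact p = 1.72e-13).

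Of 28 proliferation markers all had reads, but 16 had fewer than 10 over both libraries. Of 12 tested, 10 passed the exact binomial test (83.3%, against 66.2% of all genes), 7 higher in replicate 2 and 3 lower. Against the length trend 5 of 11 passed (45.5%, against 42.3% of all genes), 4 higher in replicate 2 and 1 lower. The sum of the 28 was 1085 CPM in replicate 2 and 285 CPM in replicate 1. The 6 Mcm genes summed to 944 CPM in replicate 2 and 125 CPM in replicate 1, while the other 22 summed to 141 CPM in replicate 2 and 160 CPM in replicate 1. That split was not part of the plan, and the sums are not adjusted for length. The 3 markers with most reads encode subunits of the DNA replication helicase. Mcm2 had 170 reads in replicate 2 and 29 in replicate 1, Mcm6 had 145 and 21, and Mcm7 had 67 and 24 in the same order of libraries. With length adjusted, Mcm2 and Mcm6 passed (log2 ratios 1.04 and 1.60) and Mcm7 did not (0.640 as the adjusted exact p). The marker that was lower with length adjusted was Tyms, the thymidylate synthase gene, named after its values were seen, with 5 reads in replicate 2 and 17 in replicate 1 (-3.06, adjusted exact p = 1.02e-05). Mki67, named here after its values were seen, had 3 reads in replicate 2 and 2 in replicate 1.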

How the data were processed

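Whole-number read counts per transcript model were deposited by the authors, 1 table of models per library, per the file headers and attributes built by TALON on mm10 with GENCODE M21. The aligner and its settings were not given in the sources used here. Counts were summed per gene, and the members and gene lists were chosen with earlier results of these data known. Libraries held 587861 (replicate 2) and 810239 (replicate 1) reads. TMM factors came from edgeR 4.0.16 and alternative size factors from DESeq2 1.42.0 (R 4.3.3), for scaling only. Exact binomial and Fisher tests, Clopper-Pearson intervals (95%) and the lowess curve (span 0.3) used scipy 1.17.1 and statsmodels 0.14.6. The binomial test without length adjustment and the Fisher test were tried on simulated counts that held counting error only. The length-adjusted test and the intervals were not tried on simulated data. Log2 ratios had 0.5 reads added. Genes needed at least 10 reads over both libraries, and at least 10 in each for model use. From the wider lists the text names, by a rule, the 5 genes with the highest mean, those that pass both tests with at least 4-fold after length adjustment, and 3 proliferation markers with most reads. Other list genes were named after their values were seen, as marked where they appear. Transcript sequences are from GENCODE M21 and promoters from RefSeq (GRCm38.p6), where 7 of 10 members matched. No paired test applied to 1 group.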

Additional observations from a re-analysis of the deposited data

Results flagged for a closer look

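Reads on unannotated models opposite the strand of a member, which enter no comparison above, exceeded 3 reads in replicate 1 over 5 genes. They numbered 9 over Cdkn1a, 15 over Cdkn1c, 16 over Ccnd2, 9 over Ccnd3 and 4 over Mdm2. Replicate 2 held 1 such read over Ccnd3, 1 over Mdm2 and 0 over Cdkn1a, Cdkn1c and Ccnd2. Such antisense models took 2.03% of all reads in replicate 2 and 4.61% in replicate 1. Nearly all lay on unspliced models (8 of 9 over Ccnd3 in replicate 1, and all over the other genes). Whether these reads are antisense RNA was not tested.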

How the results depend on the processing

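No paired analysis was possible because the 2 libraries form 1 group. Of 76 alternative values of the members' differences in level or in model use, 62 kept their sign and their side of the threshold and 9 changed sign. The count of genes that passed, 6497 of 9809 (66.2%), was 4037 of 4705 (85.8%) with at least 50 reads and 3878 of 9173 (42.3%) with the length trend removed; for model use, 1359 became 186 with annotated models only and 748 without unspliced models. Of the 9 sign changes, 3 were of values that had passed: Ccnd2 by total counts (log2 ratio 0.127), Ccnd3 with length adjusted (0.145) and use of the full Ccnd2 model without unspliced models (1.74 points). The other 6 passed in neither fit: Cdkn1b with length adjusted (-1.005), Ccnd1 by total counts (0.267), model use of Gadd45b with annotated models only (-5.26 points) and without unspliced models (-8.40 points), of Ccnd1 without unspliced models (-10 points) and of Ccnd3 with annotated models only (-0.117 points); the cause of these changes was not tested. Ccnd2 also missed the threshold with DESeq2 factors (adjusted exact p = 0.0507) and without the filter (0.0635). With each gene weighted equally, annotated models held 69.15%, unannotated spliced 10.10% and unspliced 16.22% of the members' reads. Gadd45a, Cdkn1b, Gadd45b and Ccnd1 had at most 31 reads a library, so small differences in them were not detectable at this depth.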
